A study of Rattus norvegicus with 6 samples.

Results

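The genes described here are RNA splicing and 3′ end processing factors of the rat brain, together with RNA helicases and RNA-binding proteins that carry the same kinds of names. They were chosen by gene name: loci of the deposited annotation whose reference gene name begins with Srsf, Hnrnp, Sf3a, Sf3b, Snrp, Prpf, Rbm and a digit, Rbfox, Lsm and a digit, Cpsf, Cstf, Pabp, Celf, Elavl, Nova, Ddx or Dhx and a digit, Mbnl or U2af. This gave 98 loci with 99 such names, of 24744 loci quantified and 6977 with a gene name. Rbm5 and Rbm6 share 1 locus. PolyA RNA of the whole brain was sequenced from 3 naive male SHR rats (inbred strain SHR/OlaIpcvPrin, the spontaneously hypertensive rat) and from 3 naive male BNLx rats (inbred strain BN-Lx/CubPrin, derived from the Brown Norway rat). No treatment was given and no age is stated in the labels. SHR was compared with BNLx as the reference strain.

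Splicing removes introns from a transcript in the spliceosome, which is built from small nuclear RNPs with shared Sm and Lsm ring proteins, from SF3 and PRPF proteins, and from helicases of the DEAD-box (Ddx) and DEAH-box (Dhx) families that remodel it. SR proteins (Srsf) and hnRNP proteins bind exons and introns and set which splice sites are used, and in neurons the Rbfox, Nova, Elavl, Celf and Mbnl families add cell type specific choices. The 3′ end of most mRNAs is cut and polyadenylated by the cleavage and polyadenylation specificity factor (Cpsf) and the cleavage stimulation factor (Cstf), and the tail is then covered by polyA-binding proteins (Pabp). Many of these genes, the SR protein genes above all, are known in mammals to make isoforms that keep an intron or carry an extra exon and limit the amount of their own protein.

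The 6 libraries held 11747048 to 41333078 expected counts. SHR replicate 1 and BNLx replicate 3 stood apart: the chi-square per degree of freedom across loci was 8.38 between SHR replicates 2 and 3 and 9.72 between BNLx replicates 1 and 2, but 69.1 to 114 in the pairs that held either of them. Summed neuron markers (8 loci) were at 5702, 7640 and 7657 CPM (counts scaled to a common library size) in SHR replicates 1 to 3, against 7717, 8802 and 6100 CPM in BNLx replicates 1 to 3, so the sums were lowest of their strain in these same libraries. Single markers did not all follow the sum: among the SHR libraries, replicate 1 was the highest for 3 of the 8 markers, Gad1 (523 CPM, against 217 and 214), Eno2 (1011 CPM, against 807 and 862) and Stmn2 (402 CPM, against 329 and 364). Summed oligodendrocyte markers (4 loci) ran from 1959 to 4419 CPM in SHR and from 3372 to 6854 CPM in BNLx, which overlap. Summed meningeal markers (3 loci) ran from 53.7 to 101 CPM in SHR and from 27.2 to 39.2 CPM in BNLx, without overlap. Summed markers of astrocytes (4 loci, 3994 to 5421 CPM in SHR and 3380 to 4358 CPM in BNLx), microglia (5 loci, 114 to 154 CPM in SHR and 103 to 121 CPM in BNLx), oligodendrocyte precursors (1 locus, 24.4 to 26.1 CPM in SHR and 19.0 to 25.7 CPM in BNLx), endothelial cells and pericytes (1 locus, 17.2 to 22.5 CPM in SHR and 11.8 to 20.2 CPM in BNLx) and choroid plexus and ependyma (1 locus, 1.41 to 5.87 CPM in SHR and 0.347 to 2.45 CPM in BNLx) overlapped. No marker locus of any cell type list passed the gene test, and in bulk tissue fewer cells of a type and less RNA per cell cannot be told apart. Whether the makeup of the samples bears on the values below was not tested.

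At the level of whole genes, none of these splicing and 3′ end factors differed between the strains past the test. Of the 98 loci, 96 reached 50 counts in 2 replicates of a strain, and 0 of these 96 passed a Benjamini-Hochberg adjusted p of 0.05 in edgeR's quasi-likelihood test, where 1.02% of all 14471 tested loci did (147 loci). With no adjustment, 2 of 96 had a p up to 0.05 in edgeR (2.08%), against 10.2% of all loci, and DESeq2 called 1 of 96 (1.04%) against 3.75%. The log2 fold change, SHR over BNLx, was above 0 for 45 members and below 0 for 51, with a median of -0.03 against 0.00038 over all tested loci.

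The measured differences of the members were small. The log2 fold change of 95 of 96 members was within 0.5 of no change, against 83.8% of all tested loci, and the median absolute log2 fold change was 0.11 against 0.18. Their standard errors (SE) had a median of 0.14 against 0.20, and the 95% interval of 91 members lay within 1 log2 unit of no change. The median level of the members was 48.0 TPM (a level per transcript length, scaled within each library) against 28.1 TPM over 5412 other tested loci with a gene name. The strains' CPM did not overlap for 16 of 96 members (16.7%), against 17.5% of all loci: 8 were higher in SHR (8.33%, against 8.97%) and 8 lower (8.33%, against 8.49%).

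**Figure D1:**
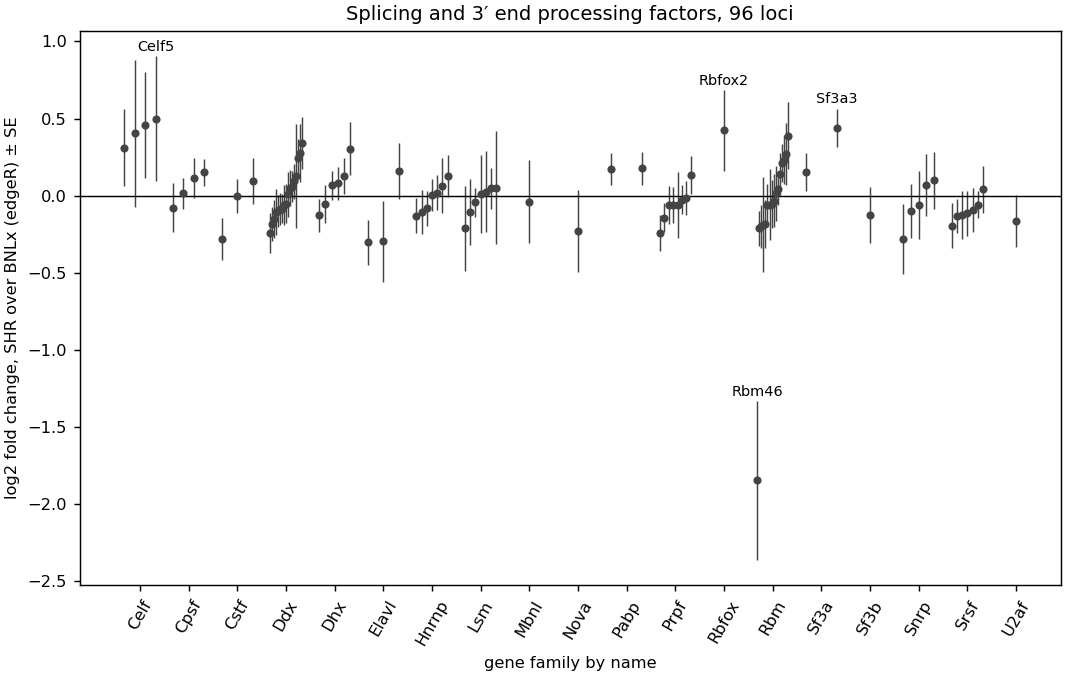
Log2 fold change of each tested member, SHR over BNLx, from edgeR, by gene family; points are loci and bars are standard errors. Values lie between -0.30 and 0.50 except Rbm46 at -1.85, and no locus passed an adjusted p of 0.05.

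Without SHR replicate 1 and BNLx replicate 3, edgeR called 19 of 94 members (20.2%), against 31.5% of all loci in the same fit. Of the 19, 8 were higher in SHR and 11 lower, against 2299 higher and 2094 lower of the 4393 called over all loci. The members called in that fit included Rbfox2 (log2 fold change 0.76), Ddx3x (0.57), Elavl3 (0.44) and Mbnl1 (0.42) among the higher ones, and Lsm7 (-0.60), Snrpe (-0.60), Srsf3 (-0.40), Srsf7 (-0.35) and Srsf6 (-0.32) among the lower ones. This fit has 2 libraries a strain, and the libraries left out were picked because they stand apart, so its calls are not independent of that choice.

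Of the SR proteins, which bind exonic enhancers, 7 loci were measured and 6 had a negative log2 fold change, between -0.19 (Srsf3) and 0.04 (Srsf5), with none past the test. Leaving out SHR replicate 1 turned Srsf5 to -0.07, and limma on log2(TPM + 1) turned Srsf6 to 0.06. Srsf5 was the most abundant, at 471, 424 and 423 TPM in the SHR libraries and 399, 390 and 373 TPM in the BNLx libraries. Its TPM ranges did not overlap, yet its log2 fold change from counts was 0.04 (SE 0.15). The median of log2(TPM + 1) was higher in SHR by 0.07 over all tested loci and by 0.05 over the members, a shift that counts scaled by TMM do not show. The TPM summed over all members was 8224, 8137 and 8185 in SHR against 7543, 7768 and 7799 in BNLx, without overlap, while their share of all counts was 0.973%, 0.901% and 0.902% in SHR and 0.903%, 0.924% and 0.893% in BNLx, which overlap.

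The 7 loci of hnRNP proteins, many of which bind introns and silence nearby splice sites, lay between -0.13 (Hnrnpf) and 0.13 (Hnrnpr) on the log2 scale. Hnrnpa2b1 led them with 552, 494 and 506 TPM in SHR and 465, 504 and 549 TPM in BNLx. The groups overlapped.

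The core spliceosome proteins among the members, which are only part of all such proteins, did not pass the test at the gene level either. Of the Snrp loci, which encode small nuclear RNP proteins, 5 of 6 were tested and lay between -0.28 (Snrpe) and 0.10 (Snrpd3), and Snrpd2l was at 0 TPM in all 6 libraries. Snrpd3, an Sm ring protein, was highest in SHR replicate 1, at 154 TPM against 110 and 129 in the other SHR libraries and 121, 115 and 112 TPM in BNLx. The 7 Lsm loci, whose proteins form rings on U6 RNA or act in mRNA decay, lay between -0.21 and 0.05. The locus of Lsm10, a protein of the U7 snRNP, was the most abundant of them. It was at 153, 143 and 142 TPM in SHR and 145, 137 and 164 TPM in BNLx. This locus also holds Mrps15, Oscp1 and Stk40, so its level is not that of Lsm10 alone. Of the 8 Prpf loci, which encode proteins of U1, the tri-snRNP and related complexes, 7 were below 0, with Prpf39 lowest at -0.24 (SE 0.11) and Prpf40b most abundant at 56.9 ± 3.46 TPM in SHR and 57.8 ± 4.97 TPM in BNLx (SD, n = 3 each). U2af1, which reads the AG at the 3′ splice site, was at 98.0, 72.5 and 91.2 TPM in SHR and 96.2, 90.6 and 92.3 TPM in BNLx.

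Sf3a3, a subunit of the SF3A complex that ties U2 to the branch site, had the lowest p of all members. It was at 61.6, 56.2 and 55.2 TPM in SHR, against 40.3, 47.7 and 46.0 TPM in BNLx, and the groups did not overlap. The log2 fold change was 0.44 (SE 0.12, unadjusted p = 0.0107 and adjusted p = 0.271 from edgeR), and it passed only without SHR replicate 1 and BNLx replicate 3 (0.32, adjusted p = 0.0414 from edgeR). Sf3a2, another subunit of that complex, had a log2 fold change of 0.15 (SE 0.12). Sf3b4, a branch site protein of SF3B, was at 346, 359 and 341 TPM in SHR and 289, 317 and 462 TPM in BNLx, but its locus also holds Sv2a, Otud7b and Mtmr11, so its level is not that of Sf3b4 alone.

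The helicases were the largest group, with 17 Ddx and 6 Dhx loci, none past the test. Ddx39b helps load U2 and exports mRNA, and its locus was the most abundant of the members. The locus was at 1045, 1009 and 1016 TPM in SHR and 1074, 1086 and 925 TPM in BNLx. It also holds Atp6v1g2, so its level is not that of Ddx39b alone. The lowest p-values were those of Ddx31 (log2 fold change 0.34, SE 0.17), Ddx6 (0.24, SE 0.12), a decapping and P-body helicase, and Ddx25 (-0.24, SE 0.13), known as a testis helicase, whose locus also holds Hyls1. Ddx6 was at 46.6, 62.2 and 58.7 TPM in SHR and 34.7, 41.7 and 51.7 TPM in BNLx, which overlap in TPM but not in CPM. Ddx1 was at -0.18 (SE 0.11) and Dhx35 at 0.31 (SE 0.17). Dhx30, the most abundant Dhx locus, was at 67.2 ± 2.23 TPM in SHR and 62.2 ± 4.16 TPM in BNLx (SD, n = 3 each).

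Among the 16 Rbm loci, Rbm46 alone had a log2 fold change beyond 1 in size. Known as a germ cell RNA-binding protein, it was at low levels here, at 1.5, 0.58 and 0.72 TPM in SHR and 3.18, 2.03 and 6.08 TPM in BNLx. The groups did not overlap, and BNLx replicate 3 was the highest. The log2 fold change was -1.85 (SE 0.51, adjusted p = 0.271 from edgeR), and it was the 1 member that DESeq2 called (adjusted p = 0.0309). Its coefficient of variation in CPM, 51.9% in SHR, was the highest of the tested members in that strain. Rbm15b, a partner of the m6A methyltransferase, had 0.39 (SE 0.22) in a locus with Dock3 and Manf, and Rbm3, a cold-induced protein, had 0.21 (SE 0.12) in a locus with Ebp and Tbc1d25.

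None of the 3′ end factors passed the test. Cpsf1, a scaffold subunit, was at 28.0, 31.3 and 29.7 TPM in SHR and 24.9, 23.9 and 27.3 TPM in BNLx, with a log2 fold change of 0.15 (SE 0.09, adjusted p = 0.645 from edgeR). Cpsf3, the endonuclease, was at 34.6, 34.9 and 36.2 TPM in SHR and 29.7, 30.9 and 46.2 TPM in BNLx (-0.08, SE 0.16), so 1 BNLx library was above every SHR library. Cpsf2 had 0.11 (SE 0.13). Cpsf6, a subunit of cleavage factor Im that is known to shift polyA site choice, had 0.015 (SE 0.10) in a locus with Lyz2.

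Of the cleavage stimulation factor, which binds downstream of the polyA signal, Cstf3 had the lowest value, -0.28 (SE 0.13, adjusted p = 0.557 from edgeR). Its CPM did not overlap, while its TPM did, at 43.4, 30.1 and 39.4 in SHR and 30.8, 40.4 and 29.1 in BNLx, and on the log2(TPM + 1) scale the difference had the other sign (0.17, adjusted p = 0.82 from limma). Cstf2, the RNA-binding subunit, had -0.0047 (SE 0.11) and Cstf1 0.10 (SE 0.15). Pabpc1, the main cytoplasmic polyA-binding protein, was higher in TPM in every SHR library, at 131, 139 and 139 TPM against 111, 114 and 113 TPM in BNLx, but its log2 fold change of 0.18 (SE 0.10) did not pass the test (adjusted p = 0.645 from edgeR). Pabpc4 had 0.17 (SE 0.10), and Pabpc5 was too low to test, at 0.30 to 0.65 TPM in SHR and 0.43 to 1.07 TPM in BNLx. Nudt21, Cpsf4, Cpsf7 and Pabpn1 were not analysed here.

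Several of the regulators known from neurons varied widely between replicates. All 4 Celf loci, which encode proteins that bind GU-rich RNA, had a positive log2 fold change, from 0.31 (Celf1) to 0.50 (Celf5), with none past the test. Without BNLx replicate 3, Celf1, Celf3 and Celf5 had 0.10, 0.14 and 0.15. Celf5 was at 147, 204 and 215 TPM in SHR and 141, 169 and 59.6 TPM in BNLx, and Celf3 at 94.6, 121 and 137 TPM in SHR and 88.7, 95.2 and 45.7 TPM in BNLx. In each the lowest library of a strain was SHR replicate 1 or BNLx replicate 3, the libraries that also had the lowest summed neuron markers of their strain. Celf6 ran the other way, at 30.5, 13.2 and 17.6 TPM in SHR and 8.72, 10.6 and 25.4 TPM in BNLx, with these libraries the highest, and its coefficient of variation in CPM of 54.5% in BNLx was the highest of the tested members there. Its log2 fold change of 0.40 was -0.02 without SHR replicate 1 and 0.95 without BNLx replicate 3.

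Rbfox2, which binds UGCAUG, was at 40.9, 83.8 and 82.9 TPM in SHR and 45.0, 42.5 and 59.6 TPM in BNLx. SHR replicate 1 was the lowest of all 6 libraries and the other SHR libraries the highest. The log2 fold change was 0.42 (SE 0.26, adjusted p = 0.662 from edgeR) over all libraries and 0.76 (adjusted p = 0.00306 from edgeR) without SHR replicate 1 and BNLx replicate 3.

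Elavl2, Elavl3 and Elavl4, neuronal proteins that bind AU-rich and U-rich RNA, had log2 fold changes of -0.30 (SE 0.15), 0.16 (SE 0.18) and -0.30 (SE 0.26). Elavl4 was at 27.8, 53.8 and 53.3 TPM in SHR and 52.2, 57.2 and 45.7 TPM in BNLx. Nova1, a neuronal protein that binds YCAY elements, was at 32.5, 28.7 and 25.9 TPM in SHR and 23.0, 25.5 and 51.0 TPM in BNLx (-0.23, SE 0.27, and 0.11 without BNLx replicate 3). Mbnl1, which binds CUG repeats and opposes Celf1 on some exons, was at 25.4, 34.7 and 32.8 TPM in SHR and 22.9, 26.7 and 44.7 TPM in BNLx. Its log2 fold change was -0.04 (SE 0.27), and 0.42 without SHR replicate 1 and BNLx replicate 3 (adjusted p = 0.0245 from edgeR), so that its direction turned. Leaving out BNLx replicate 3 alone gave 0.29 and SHR replicate 1 alone 0.09, neither of them past the test. Rbfox1, Rbfox3, Nova2, Celf2, Celf4, Mbnl2 and Mbnl3 were not analysed here.

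**Figure D2:**
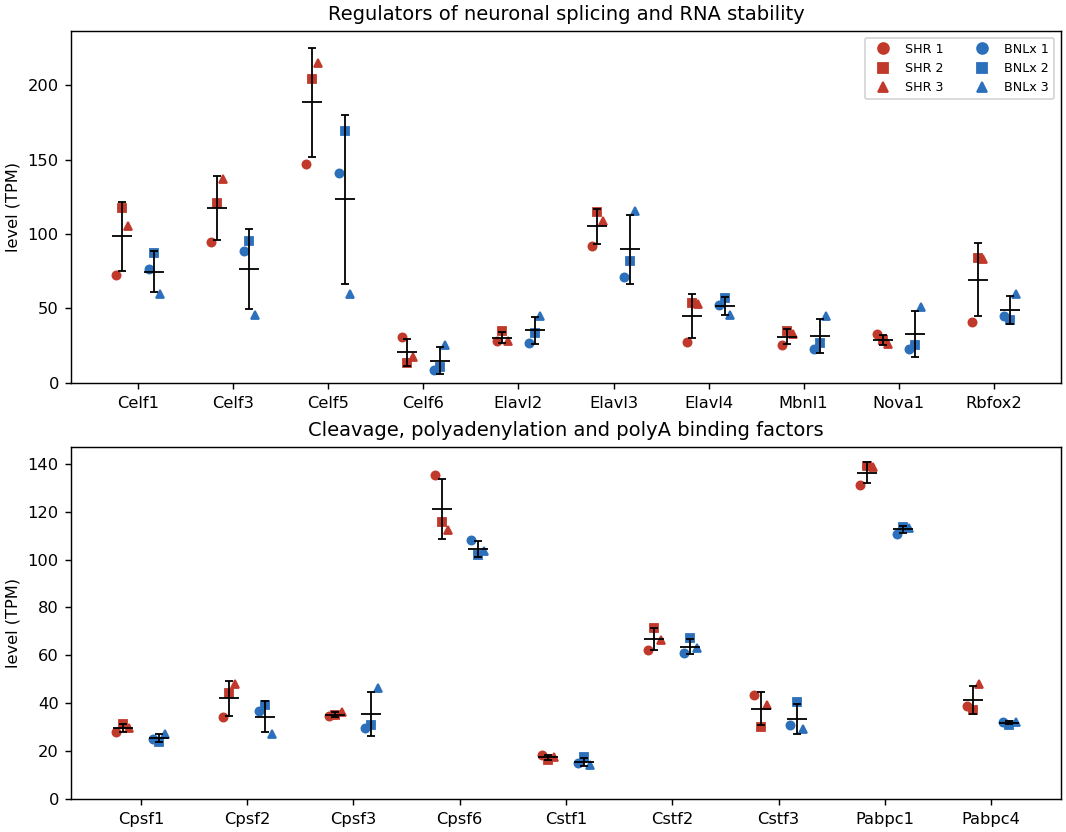
Levels in TPM of the neuronal regulators (upper) and of the 3′ end factors (lower) in each library; red points are SHR, blue points BNLx, and black bars the mean ± SD of 3 replicates. Celf5 lay between 147 and 215 TPM in SHR and between 59.6 and 169 TPM in BNLx, while Pabpc1 lay between 131 and 139 TPM in SHR and between 111 and 114 TPM in BNLx.

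Few isoforms of these genes passed the isoform test, a share near that of all isoforms. The 98 loci hold 545 transcripts, 152 of them added by aptardi, which gives an original transcript another 3′ end, and 345 isoforms passed the count filter. At an unadjusted p of 0.001, edgeR called 3 of 345 (0.870%), against 1.00% of all 32348 isoforms: 1 was higher in SHR (0.290%, against 0.476%) and 2 were lower (0.580%, against 0.526%). The isoforms were of Srsf6, Rbm12b and Sf3a3. DESeq2 called 11 of 345 (3.19%) against 3.60%. With the 3′ ends of each original transcript summed, edgeR called 2 of 293 (0.683%), of Rbm12b and Sf3a3, against 1.14% of 28513.

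Within a locus, isoforms can trade places while the total stays level. The usage test of edgeR (diffSpliceDGE), which asks whether the isoforms of a locus changed by different amounts, called 6 of 67 members with 2 or more tested isoforms (8.96%) at an adjusted p of 0.05, against 4.37% of 7742 loci. The members were Rbm12b (adjusted p = 8.1e-05), Srsf6 (0.00705), Sf3a3 (0.00996), Ddx24 (0.027), Hnrnph3 (0.0385) and Elavl3 (0.0468). The usage test of limma called 5 of them and not Elavl3, in a total of 5 of 67 (7.46%) against 2.22%. Leaving out 1 library gave 2 to 7 members, with the fewest without SHR replicate 2 and 3 without SHR replicate 3. These counts can include members outside the 6. Without BNLx replicate 1, only Rbm12b of the 6 stayed called. Cstf1, Lsm10 and Prpf38b were gained there (adjusted p = 0.00159, 0.00325 and 0.00321 from edgeR). None of these loci passed the gene test.

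Srsf6, an SR protein that binds exonic enhancers, lies on chromosome 3 (rn6, positions 159305345 to 159310668, plus strand). Its 7 tested isoforms combine 3 splicing forms with 3 ends. STRG.15204.1 is fully spliced, STRG.15204.2 extends exon 2 up to a short intron of 344 bases (159306846 to 159307189), and STRG.15204.3 keeps all of intron 2, which is 1261 bases long (159305929 to 159307189). The aptardi ends lie at -1910 or -1810 bases from the original end, inside the last exon. Intron 2 ends 1845 bases from the start of the gene and the nearest 3′ end lies at 3414 bases, while the paired reads were 100 bases long. Which end goes with which splicing form is thus largely estimated in the counting, and the levels of single combinations are uncertain.

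The isoform with intron 2 and the shortest end, STRG.15204.3.1, was at 1.96, 3.23 and 2.67 CPM in SHR, against 17.9, 12.7 and 22.1 CPM in BNLx. The groups did not overlap. Its log2 fold change was -2.75 (SE 0.33, unadjusted p = 0.000195 and adjusted p = 0.0427 from edgeR), the only one of 345 member isoforms past an adjusted p of 0.05 (0.290%, against 0.532% of all isoforms). In edgeR the call at 0.001 was lost without SHR replicate 3 (unadjusted p = 0.0014 from edgeR) and without BNLx replicate 1 (unadjusted p = 0.00109 from edgeR), with log2 fold changes of -2.76 and -2.75. The isoform with intron 2 and the other short end, STRG.15204.3.2, was also low, at 2.62, 3.00 and 0.949 CPM in SHR and 14.6, 9.59 and 5.79 CPM in BNLx, at an unadjusted p of 0.00922 in edgeR.

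The opposite held for the spliced isoform with the shortest end, STRG.15204.1.1, at 35.2, 29.6 and 38.8 CPM in SHR against 23.1, 20.6 and 18.2 CPM in BNLx (log2 fold change 0.74, SE 0.18, unadjusted p = 0.00599 from edgeR). The spliced isoform with the original end, STRG.15204.1, was at 23.1, 14.2 and 3.84 CPM in SHR and 34.7, 26.9 and 33.7 CPM in BNLx. The extended form STRG.15204.2 was at 20.9, 8.38 and 25.3 CPM in SHR and 4.52, 7.45 and 0.927 CPM in BNLx (unadjusted p = 0.0419 from edgeR). In each of these isoforms the strains did not overlap. The isoform with intron 2 and the original end, STRG.15204.3, did overlap, at 36.0, 36.5 and 34.7 CPM in SHR and 28.0, 41.4 and 21.3 CPM in BNLx.

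Grouped by splicing form, all isoforms that keep intron 2 summed to 40.6, 42.8 and 38.3 CPM in SHR and 60.5, 63.6 and 49.2 CPM in BNLx, without overlap (log2 fold change of the sum -0.51, unadjusted p = 0.0135 from edgeR, not past 0.001). The spliced form summed to 54.7 ± 12.6 CPM in SHR and 59.6 ± 7.88 CPM in BNLx (SD, n = 3 each), which overlap. Its share of Srsf6 counts was 47.2 ± 6.24% in SHR and 47.9 ± 4.15% in BNLx, which overlap too. The extended form, which keeps part of intron 2, held 17.1 ± 7.98% in SHR and 5.86 ± 2.07% in BNLx, without overlap. The form with all of intron 2 held 35.6 ± 5.33% in SHR and 46.3 ± 2.26% in BNLx, also without overlap. Grouped by end, the original end held 58.6 ± 1.71% of Srsf6 counts in SHR and 53.1 ± 4.46% in BNLx (SD, n = 3 each), which overlap. The shortest end, summed over splicing forms, was at 38.4, 33.3 and 42.8 CPM in SHR and 42.5, 35.3 and 43.3 CPM in BNLx, which overlap as well. The gene total had a log2 fold change of -0.11 (SE 0.15). The usage call held with 5 of the 6 libraries left out in turn and failed without BNLx replicate 1 (adjusted p = 0.115 from edgeR).

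**Figure D3:**
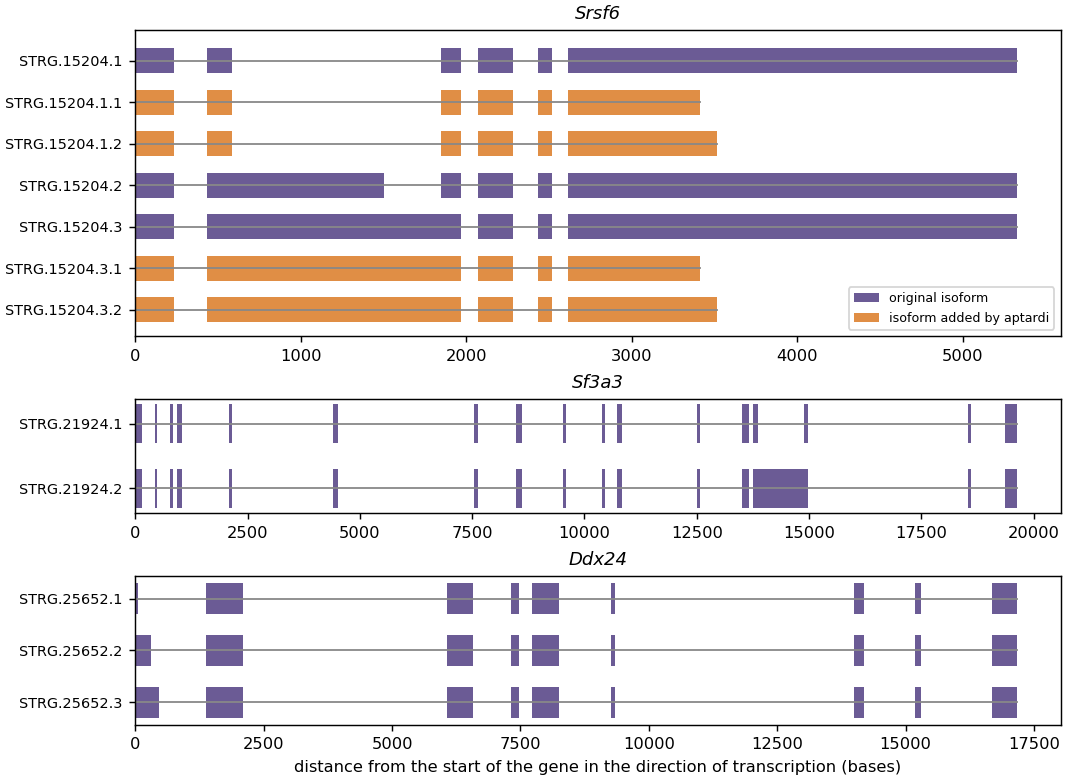
Exons (boxes) and introns (lines) of the tested isoforms of Srsf6, Sf3a3 and Ddx24, by distance in bases from the start of the gene; purple marks original isoforms and orange those added by aptardi. Exon 2 of Srsf6 runs on through intron 2 in STRG.15204.3, intron 14 of Sf3a3 (1025 bases) is kept in STRG.21924.2, and the Ddx24 isoforms differ in how far the first exon reaches.

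Sf3a3 lies on chromosome 5 (rn6, 142702685 to 142722341, plus strand) and has a spliced isoform of 17 exons and an isoform, STRG.21924.2, that keeps intron 14 (142716587 to 142717611, 1025 bases). The isoform with intron 14 was at 21.6, 18.1 and 16.3 CPM in SHR, against 5.70, 7.45 and 4.33 CPM in BNLx, so the lowest SHR library was above the highest BNLx library. Its log2 fold change was 1.68 (SE 0.27, unadjusted p = 0.000905 and adjusted p = 0.0951 from edgeR). The spliced isoform was at 33.9, 27.1 and 29.1 CPM in SHR and 29.2, 32.0 and 30.4 CPM in BNLx (-0.03, SE 0.15).

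So the isoform with intron 14 held 38.6%, 39.3% and 35.5% of Sf3a3 counts in SHR and 16.3%, 19.0% and 12.3% in BNLx. These shares did not overlap. Leaving out any 1 of the 6 libraries raised the p of the isoform above 0.001 (unadjusted p from 0.0012 to 0.00557 in edgeR, log2 fold change 1.51 to 1.89), and the usage call was lost without SHR replicate 2, SHR replicate 3 or BNLx replicate 1 (adjusted p = 0.0681, 0.0575 and 0.0652 from edgeR).

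Ddx24, a DEAD-box helicase, lies on the minus strand of chromosome 6 (rn6), and its first exon starts at 127319362 and ends at 3 places, 127319317, 127319062 or 127318903. The exon is 46 bases long in STRG.25652.1, 301 bases in STRG.25652.2 and 460 bases in STRG.25652.3, and the other 8 exons are the same. The 301-base form was at 1.99, 1.83 and 0 CPM in SHR, against 23.6, 24.9 and 26.3 CPM in BNLx. It made up 1.07 ± 0.93% of Ddx24 counts in SHR and 19.5 ± 0.86% in BNLx (SD, n = 3 each).

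The 46-base form was at 108, 107 and 113 CPM in SHR and 96.3, 92.3 and 108 CPM in BNLx, and the 460-base form at 7.97, 8.62 and 8.90 CPM in SHR and 1.43, 4.63 and 6.57 CPM in BNLx. The gene total had a log2 fold change of -0.10 (SE 0.11). As a single isoform the 301-base form had an unadjusted p of 0.0157 in edgeR (log2 fold change -4.28, SE 1.27) and 0.000345 in DESeq2. The usage call was lost without SHR replicate 1, SHR replicate 2, BNLx replicate 1 or BNLx replicate 2 (adjusted p = 0.0576, 0.15, 0.101 and 0.137 from edgeR), although the CPM of the 301-base form did not overlap between the strains.

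**Figure D4:**
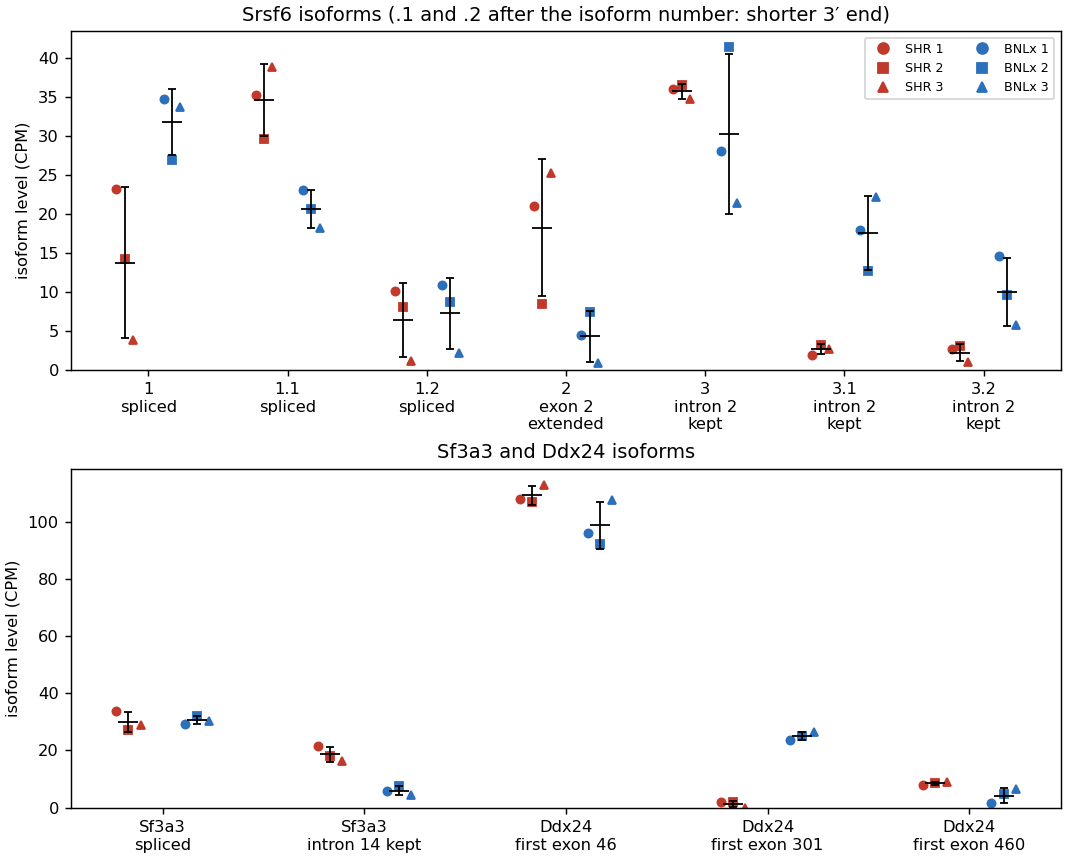
Isoform levels in CPM by library for Srsf6 (upper) and for Sf3a3 and Ddx24 (lower); red points are SHR, blue points BNLx, and black bars the mean ± SD of 3 replicates. The Ddx24 isoform with a first exon of 301 bases was between 0 and 1.99 CPM in SHR and between 23.6 and 26.3 CPM in BNLx, and the Sf3a3 isoform with intron 14 between 16.3 and 21.6 CPM in SHR and between 4.33 and 7.45 CPM in BNLx.

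Rbm12b, an RNA-binding protein with RRM domains, had the lowest p of the usage test, in a locus of chromosome 5 (rn6, 25247987 to 25732647) that also holds LOC679087. The reference transcripts of these genes start 472673 bases apart. The transcripts on the Rbm12b side summed to 4.37, 3.09 and 3.07 CPM in SHR, against 12.8, 15.9 and 14.4 CPM in BNLx, and held 13.2 ± 2.73% of the locus in SHR and 46.5 ± 1.59% in BNLx (SD, n = 3 each). Those on the LOC679087 side summed to 17, 15.1 and 16.7 CPM in SHR and 13.0, 14.1 and 13.5 CPM in BNLx.

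On the Rbm12b side the called isoform was STRG.19760.4, at 4.11, 2.90 and 3.07 CPM in SHR and 12.2, 13.9 and 11.6 CPM in BNLx (log2 fold change -1.90, SE 0.24, unadjusted p = 0.000281 and adjusted p = 0.0517 from edgeR). On the LOC679087 side, STRG.19760.8 was at 5.63, 5.85 and 5.74 CPM in SHR and 11.5, 11.7 and 11.8 CPM in BNLx. STRG.19760.11, at 10.5, 6.23 and 7.50 CPM in SHR, was at 0.28, 0 and 0 CPM in BNLx. STRG.19760.9, which spans both sides, was at 5.35, 6.46 and 7.28 CPM in SHR and 0.436, 1.97 and 2.32 CPM in BNLx. The locus total had a log2 fold change of -0.21 (SE 0.11). The usage call held without any 1 library, with adjusted p from 9.3e-07 to 0.00194 in edgeR. The call of STRG.19760.4 was lost without SHR replicate 2, SHR replicate 3, BNLx replicate 1 or BNLx replicate 2 (p from 0.00167 to 0.00228 in edgeR). As the locus merges both genes, reads can be split between their transcripts in the counting, and which transcript the reads came from is uncertain.

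Hnrnph3, an hnRNP H family protein, rests on 2 copies of its exons on chromosome 20. The isoforms STRG.56363.4 and STRG.56363.5 have 9 exons each at a constant distance of 39511 bases, and their counts were the same in all 6 libraries, so the counts do not tell the copies apart and the isoform levels of Hnrnph3 are uncertain. Of the tested isoforms, 2 that keep several introns had the lowest unadjusted p (0.00898 and 0.0137 from edgeR): STRG.56363.14, with 8 introns of other isoforms inside its exons, was at 8.62, 7.92 and 8.90 CPM in SHR and 3.55, 5.05 and 2.70 CPM in BNLx, and STRG.56363.15, with 9, at 7.22, 8.71 and 7.37 CPM in SHR and 14.6, 10.8 and 13.7 CPM in BNLx. The other isoforms with at least 10% of the locus in a strain, STRG.56363.1, STRG.56363.2, STRG.56363.10 and STRG.56363.11, had unadjusted p-values of 0.14 to 0.761 in edgeR. The first copy summed to 53.2 ± 3.68 CPM in SHR and 56.0 ± 8.26 CPM in BNLx and the second to 32.3 ± 6.08 CPM in SHR and 35.4 ± 2.17 CPM in BNLx (SD, n = 3 each), with overlap. The 4 transcripts that span both copies, STRG.56363.14 among them, summed to 9.46, 10.7 and 10.7 CPM in SHR and 3.55, 7.20 and 2.70 CPM in BNLx, without overlap. The call was lost with isoforms of at least 10% of the locus (adjusted p = 0.27 from edgeR). It was kept only without BNLx replicate 2 and lost without any other library (adjusted p = 0.00611 without it and from 0.107 to 0.304 otherwise, in edgeR).

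Elavl3, a neuronal RNA-binding protein, has a minor isoform with an extra intron of 64 bases, STRG.30342.1, which was at 0 CPM in all 3 SHR libraries and at 2.43, 0 and 7.65 CPM in BNLx. In BNLx replicate 2 it was thus as low as in SHR. The 3 main isoforms were at 35.1, 37.7 and 36.9 CPM in SHR and 28.4, 37.8 and 41.7 CPM in BNLx (STRG.30342.2), at 39.3, 40.7 and 40.6 CPM in SHR and 30.1, 26.0 and 41.2 CPM in BNLx (STRG.30342.3), and at 8.15, 19.95 and 17.6 CPM in SHR and 10.1, 9.08 and 13.98 CPM in BNLx (STRG.30342.4). They had unadjusted p-values of 0.18 to 0.904 in edgeR, and the usage call was kept only without BNLx replicate 2 (adjusted p = 0.000749 without it and from 0.101 to 1.0 otherwise, in edgeR). It was lost as well with isoforms of at least 10% of the locus (adjusted p = 0.924 from edgeR).

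A few isoforms that did not pass 0.001 are given for their values by library and were chosen after these were seen. An aptardi isoform of Srsf10, STRG.22413.1.4, with its end at -425 bases from that of its original transcript, was at 0.28, 0.375 and 0.542 CPM in SHR and 4.42, 16.4 and 3.79 CPM in BNLx (unadjusted p = 0.00146 from edgeR). An isoform of Prpf39 with no intron of another tested isoform inside an exon, STRG.24815.2, was at 5.12, 8.95 and 7.73 CPM in SHR and 2.59, 3.34 and 2.09 CPM in BNLx (unadjusted p = 0.00631 from edgeR). An aptardi isoform of Celf1, STRG.13387.3.1, had 0, 29.4 and 27.0 CPM in SHR and 0 CPM in each BNLx library (unadjusted p = 0.047 from edgeR). The strains' CPM did not overlap for 50 of 345 isoforms (14.5%), against 16.4% of all isoforms.

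Intron-keeping isoforms were common among these genes. Of the 67 members with 2 or more tested isoforms, 38 (56.7%) had an isoform with an intron of another isoform inside an exon, against 1356 of 3319 other loci with a gene name (40.9%). Averaged over the libraries, such isoforms held a median of 7.0% of the counts of a member's tested isoforms, against a median of 0% in the other loci. Members had a median of 3 tested isoforms, against 2 in the other tested loci with a gene name. The share was highest for Prpf39, Cstf2, Celf3 and Srsf7.

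Among SR proteins the share was 67.5%, 74.9% and 74.9% for Srsf7 in SHR and 65.5%, 70.1% and 68.7% in BNLx, and 40.7%, 44.2% and 37.5% for Srsf5 in SHR and 42.7%, 45.8% and 36.6% in BNLx. It ran from 24.6% to 31.2% for Srsf3 in SHR and from 23.7% to 26.6% in BNLx. These groups overlapped. The share did not overlap between the strains for 5 of 38 members (13.2%), against 18.3% of 1394 loci with such an isoform: it was higher in SHR for Sf3a3, Hnrnph3 and Sf3b4 and lower in SHR for Srsf6 and Prpf39. For Sf3b4 it was only 1.13 ± 0.10% in SHR and 0.53 ± 0.13% in BNLx (SD, n = 3 each), in a locus with Sv2a, Otud7b and Mtmr11. The Hnrnph3 value rests on copies that the counts do not tell apart. The extended form of Srsf6, which keeps part of intron 2, is not counted in its share. For Prpf39 the share was 92.2%, 87.3% and 88.3% in SHR and 96.5%, 96.3% and 97.2% in BNLx. Every tested Prpf39 isoform but STRG.24815.2 counts here, and STRG.24815.2 held 10.1 ± 2.26% of Prpf39 counts in SHR and 3.14 ± 0.47% in BNLx. Only STRG.24815.7, STRG.24815.8 and their aptardi isoforms keep an intron of STRG.24815.2 whole. Of these, STRG.24815.7 alone had shares without overlap, 3.24 ± 2.29% in SHR and 8.67 ± 0.50% in BNLx.

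**Figure D5:**
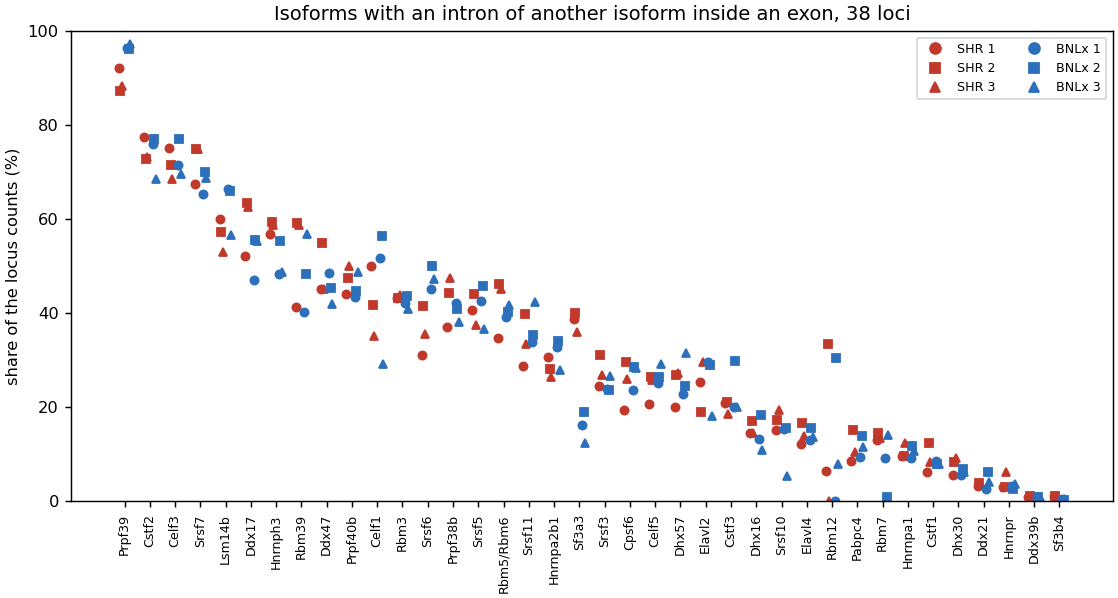
Share of the counts of a member's tested isoforms held by those with an intron of another isoform inside an exon, for the 38 members with such an isoform; red points are SHR libraries and blue points BNLx libraries. Sf3a3 lay between 36.0% and 40.1% in SHR and between 12.4% and 19.0% in BNLx, while most members overlapped.

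Aptardi added a 3′ end to 38 of 98 member loci (38.8%), near the 40.2% of other tested loci with a gene name. Of the 152 added transcripts, 76 were shorter than their original by a median of 1020 bases and 76 longer by a median of 1124.5 bases, whereas 64.6% of all added transcripts were shorter. Transcripts of a locus can share an added end, so these counts are not of separate ends. Ddx17, Srsf7 and Srsf10 hold 16, 13 and 10 of the 152. Of the 85 added isoforms past the count filter, 1 passed 0.001, the Srsf6 isoform above, against 1.00% of all tested isoforms, original and added. The share over all added isoforms alone was not counted.

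Other genes of the pathway, from fixed lists of names outside the rule, also had no call at the gene level. Of 37 other splicing factor loci 0 passed, with a median log2 fold change of -0.03, and of 11 other cleavage, polyadenylation and deadenylation loci 0 passed, with a median of 0.0038. At the isoform level 2 of 163 isoforms of other splicing factors passed 0.001 in edgeR, against 1.00% of all isoforms, both higher in SHR: Khsrp, a KH-domain splicing and decay factor, and Isy1, a spliceosome protein. Their usage test called 3 of 30 loci (Khsrp, Isy1 and Aqr, a spliceosome helicase), against 4.37% of all loci, and that of the other 3′ end factors 0 of 5, where 0 of 26 isoforms passed. The loci of Isy1 and Aqr each hold 2 named genes. Their calls, that of the Isy1 isoform included, may therefore not be of Isy1 and Aqr alone.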

How the data were processed

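Per the labels, polyA libraries were made with the TruSeq RNA kit from whole brain and sequenced as paired reads. Per the submitters' processing notes and the study's methods, the authors trimmed reads (cutadapt) and aligned them (HISAT2, rn6). The methods name strain-specific genomes, made from rn6, for SHR and BNLx. The authors then built 1 transcriptome from all libraries (StringTie 1.3.5), added 3′ ends with aptardi and estimated abundances with RSEM. The deposited files give unnormalized expected counts for isoforms and loci, TPM and FPKM scaled within each library by the authors' RSEM run, and the percent of each locus held by an isoform, also deposited. The depth was 11747048 to 41333078 expected counts a library. The kit does not mark strand, per the study's methods, so overlapping genes on opposite strands cannot be told apart. Apart from this, 15 of the 98 member loci of the assembled transcriptome hold several named genes.

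Expected counts were rounded and fitted by quasi-likelihood in edgeR 4.0.16 under R 4.3.3, with TMM factors, strain alone in the design and two-sided p-values. Features needed 50 counts in 2 replicates of a strain. Loci were called at a Benjamini-Hochberg adjusted p of 0.05, isoforms and sums over 3′ ends at an unadjusted p of 0.001, and usage (diffSpliceDGE) at an adjusted p of 0.05. CPM values use TMM library sizes, and shares of a locus use expected counts. Fits were tested on simulated data. Alternatives were DESeq2 1.42.0, RLE size factors, a total of 10 counts as the only filter, limma 3.58.1 on log2(TPM + 1) and on voom weights for usage, isoforms with at least 10% of their locus, loci with 1 gene name, a block for the replicate number, and fits that leave libraries out. FPKM values and the deposited percent were not used for a result.

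The members, the lists and the tests were chosen with earlier results of these data known. A gene whose name fits the rule is not reported here. The text names the 15 loci of lowest p, the isoforms called, the loci called by usage with their isoforms of at least 10% share, the most abundant locus of each family, the 3′ end factors and neuronal regulators, and the locus of largest replicate spread in each strain; other names were chosen after their values were seen. The lists were other splicing factors, other 3′ end factors, and markers of neurons, astrocytes, oligodendrocytes, oligodendrocyte precursors, microglia, endothelial cells and pericytes, choroid plexus and ependyma, meninges, blood and pituitary; none of the blood and pituitary markers was among the tested loci. The p-values measure the spread between 3 rats of a strain.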

Additional observations from a re-analysis of the deposited data

How the results depend on the processing

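Values for the members are given first, beside those over all features. Members called at the gene level were 0 in edgeR and without any 1 library, 1 with DESeq2, and 19 when the SHR replicate 1 and BNLx replicate 3 libraries were dropped, where all loci gave 147, 543 and 4393, or 20 to 152 without 1 library. Called member isoforms were 3 in edgeR, 11 with DESeq2, 12 with both libraries left out and 1 to 4 without 1 library, against 324, 1166, 1129 and 204 to 403 over all isoforms. Sums over 3′ ends gave 2 members, 8 with DESeq2, 8 with both libraries left out, 1 in loci with 1 gene name and 0 to 3 without 1 library, against 324, 924, 838 and 189 to 350 over all sums. The usage test gave 6 members, 5 with limma, 5 in loci with 1 gene name, 4 with isoforms of at least 10% of the locus (Rbm12b, Srsf6, Sf3a3 and Ddx24), 20 with both libraries left out and 2 to 7 without 1 library, against 338, 172 with limma, 275 with isoforms of at least 10%, 2017 and 219 to 624 over all loci. Hnrnph3 and Elavl3 were not called with both libraries left out (adjusted p = 0.149 and 0.132 from edgeR). Mbnl1 changed direction, with a log2 fold change of 0.42 (adjusted p = 0.0245 from edgeR) when both libraries were left out, against -0.04; the cause was not tested. Uncalled values of named genes that were below 0 on counts and above 0 on log2(TPM + 1) were those of Cstf3, Cstf2, Cpsf3, Hnrnpa2b1, Mbnl1 and Srsf6. Of the remaining values of named members under the alternatives, 703 kept their side of the threshold and, where never called, stayed within the SE, 43 lost a call, 16 gained one and 29 uncalled values moved by more than the SE.

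Deviations from the strain mean correlated at -0.04, 0.32 and -0.20 between libraries with the same replicate number, for numbers 1 to 3. Pairs with different numbers ran from -0.33 to 0.25. Whether same-numbered libraries shared a batch was not tested and cannot be read from these correlations. With the replicate block, 0 loci, 48 isoforms and 68 sums were called, none of them of a member (0 member isoforms and 0 member sums), and usage gave 314 loci and 5 members: Rbm12b, Srsf6 and Elavl3 were kept, Hnrnpa1 and Hnrnpa2b1 were gained (adjusted p = 0.00665 and 0.0438 from edgeR), and Sf3a3, Ddx24 and Hnrnph3 were lost (adjusted p = 0.0526, 0.142 and 0.129 from edgeR); not every sample correlated best with its own number. Lane membership, and which reads of gene copies belong to which locus, were not tested. The lowest depth, 11747048 counts in BNLx replicate 2, limits isoforms at a few CPM.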
